A study of Mus musculus with 12 samples.

Results

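The enzymes described here carry out steps of amino acid breakdown in the liver, from the first reactions on an amino acid to late steps of its carbon skeleton. The 39 genes were chosen by name and grouped by the amino acid whose carbon or nitrogen they handle. The groups are tyrosine (4 genes), tryptophan (7), serine and threonine (2), the alanine and aspartate transaminases (4), histidine (4), the branched-chain amino acids with the propionyl-CoA steps that follow them (9), lysine (2), glycine (2), proline (3) and cysteine (2). All 39 were listed in both deposited tables, which hold 20775 genes for chow livers and 22709 genes for livers on the other diet, with 20093 genes in common. All 39 also passed the filter on low counts in every comparison.

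The liver is the main site at which surplus amino acids are broken down. Amino groups are moved by transaminases or released as ammonia by dehydratases and by the glycine cleavage system, and the carbon skeletons enter gluconeogenesis, ketone body formation or the citric acid cycle. Several of these enzymes are classical targets of glucagon, glucocorticoids and protein intake, and several work as complexes whose subunits come from separate genes.

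RNA from 12 livers of male mice was sequenced, with 3 livers in each of 4 groups named chow WT, chow HuRHep-/-, HFCF WT and HFCF HuRHep-/-. By the labels, every mouse was C57BL/6N, carried floxed HuR alleles on both chromosomes and was 4 to 6 months old. The HuRHep-/- groups received an AAV8 vector with Cre under the hepatocyte promoter Tbg, and the WT groups received AAV8-Tbg-null, so that floxed alleles and virus were common to all 4 groups. The HFCF groups ate a diet with 40 kcal% fat, 2% cholesterol and 20 kcal% fructose for 16 weeks. The study's methods describe its mice otherwise, as an albumin-Cre cross of younger age, in a section apart from that on the sequencing data. The 16 weeks of HFCF exceed that age, and nothing in the tables tells which description of the Cre is right. HuR is the RNA-binding protein encoded by Elavl1, which binds AU-rich and U-rich stretches of transcripts.

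The libraries held 30071731 to 35949203 reads assigned to genes, and none repeated the counts of another. Elavl1, the targeted gene, went against the labels. Its counts ran from 876 to 948 in chow WT, from 1261 to 1475 in chow HuRHep-/-, from 791 to 904 in HFCF WT and from 1242 to 1299 in HFCF HuRHep-/-. The log2 fold changes were 0.41 (SE 0.07, limma adjusted p = 0.0219) in chow and 0.38 (SE 0.07, limma adjusted p = 0.0327) in HFCF, both towards more RNA in the livers labelled HuRHep-/-, and a direction below is therefore one between labels. Of 10 hepatocyte markers 9 were measured, at a summed level of 71820 to 133000 CPM, the unit of counts relative to the scaled library size. Of 5 kidney markers none passed the filter, Umod among them at 0 or not listed. Of 5 pancreas markers 1 passed, and Cpa1 and Pnlip were at 0 or not listed. The livers are bulk tissue, in which fewer cells of a type and less RNA per cell cannot be told apart.

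The enzymes were abundant transcripts. Together the 39 genes took between 1.13% and 1.46% of all counts in a library, and single counts ran from 245 (Acmsd) to 80724 (Hpd). On the scale of CPM per kilobase of exon, 29 of the 39 stood above the 90th percentile of 14512 genes and 19 above the 95th. The divisor is the union of all annotated exons of a gene, so that a rank depends on the annotation too. Hpd, the dioxygenase that forms homogentisate from the tyrosine keto acid, had the highest level per length, 1045 on average in chow livers labelled WT and 640 to 1158 over all 12 livers. Cdo1, which oxidises the thiol of cysteine, came next with a mean of 713 over the 12 livers, then Tat, the tyrosine transaminase, with 424, and Tdo2, the tryptophan dioxygenase, with 339. Tat ranged from 165 to 705 between livers, so that its range took in the mean levels of Tdo2, Fah, Hgd and Gcdh as well. Mccc1, the biotin-carrying subunit of methylcrotonyl-CoA carboxylase, was lowest at 4.63. Its annotated exons hold 10952 bases, against 2802 in its partner Mccc2. In CPM it averaged 50.7, beside 57.2 for Mccc2 and 12.5 for Sdsl.

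**Figure D1:**
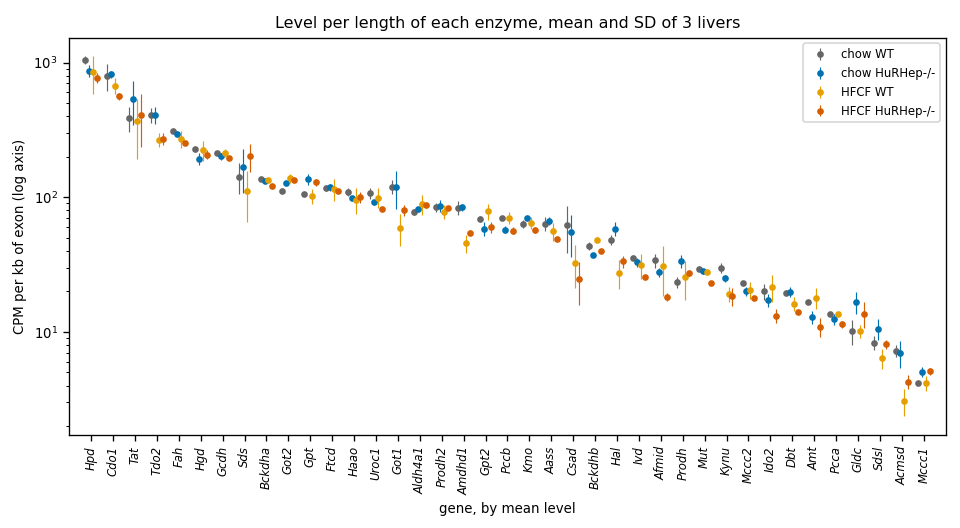
Level per length of the 39 enzymes in CPM per kilobase of exon on a log axis, sorted by the mean over 12 livers, with the mean and SD of 3 livers in each group. Hpd, Cdo1 and Tat lie at the upper end and Acmsd and Mccc1 at the lower end, and the 4 groups of most genes lie close together beside the distance between genes.

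In the remaining groups, the gene with the highest level per length was Sds for serine (155), Got2 for the transaminases (128), Ftcd for histidine (115), Bckdha for the branched-chain steps (131), Gcdh for lysine (206), Amt for glycine (14.6) and Aldh4a1 for proline (83.5), each as the mean over 12 livers. For glycine, Gldc came close with 12.7. It was above Amt in the livers labelled HuRHep-/-, by group mean 16.8 against 12.8 in chow and 13.6 against 10.9 in HFCF. Gcdh, the glutaryl-CoA dehydrogenase, was steady: its level per length was between 189 and 232 in every liver. Ftcd, the formiminotransferase of the histidine pathway, ran from 100.1 to 140, and Bckdha, the E1 alpha subunit of the branched-chain dehydrogenase, from 118 to 140. Sds, the serine dehydratase, was the opposite case, with 59.6 in the lowest liver and 245 in the highest.

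**Figure D2:**
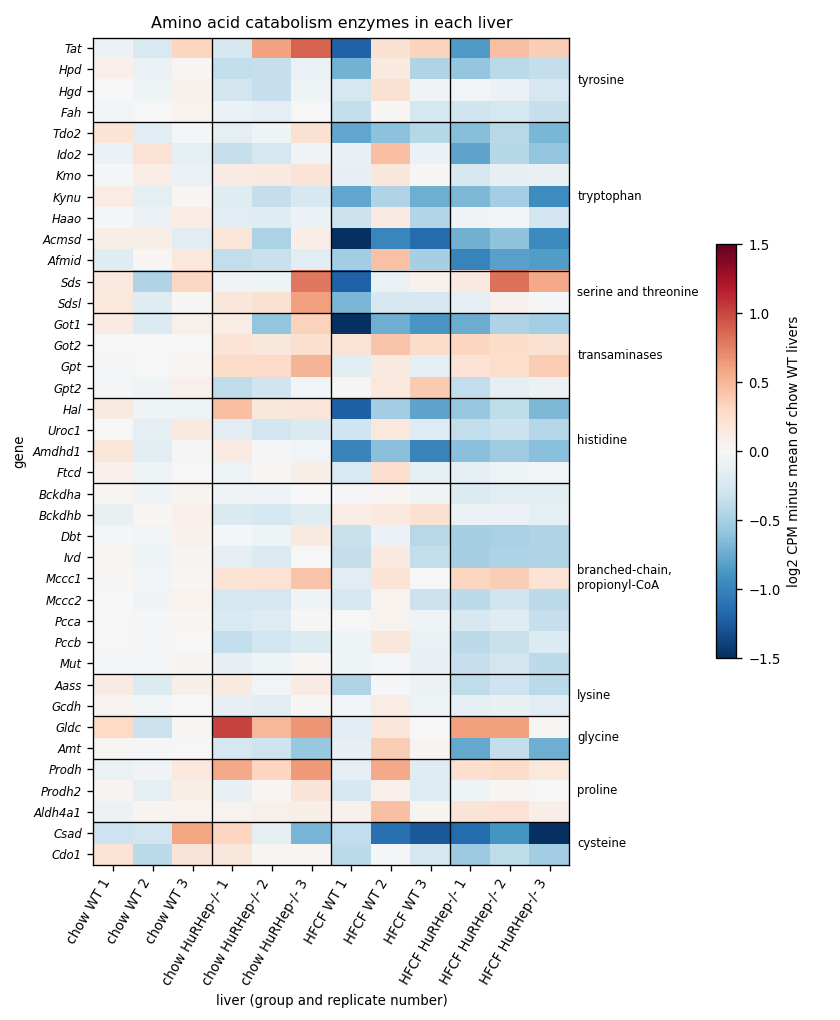
Level of each enzyme in each of the 12 livers, as log2 CPM minus the mean of the 3 chow livers labelled WT, with differences beyond 1.5 in size drawn at the end of the colour scale. Acmsd, Got1, Hal and Amdhd1 are blue in all 6 HFCF livers, and replicate 2 of HFCF WT is redder than its group for most genes.

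One liver stood apart for these genes. Replicate 2 of the HFCF livers labelled WT had the highest CPM of its group for 33 of the 39 enzymes, and the median log2 difference from its group mates was 0.30 over the 39 and 0.00 over all genes. In the HFCF livers labelled HuRHep-/- replicate 2 was highest for 28 enzymes, with a median difference of 0.09. In chow, replicate 3 of the livers labelled HuRHep-/- was highest for 29, with a median of 0.16. Values without replicate 2 of HFCF WT are given beside Amt, Ido2, Afmid, Prodh and the counts of calls for HFCF and for diet in WT. That liver was picked for its high values of these enzymes, so that lower HFCF WT means without it follow from the choice.

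The comparison of livers labelled HuRHep-/- and WT asks which of these transcripts differ between the labels, on either diet. A gene was called when the limma p, adjusted by Benjamini-Hochberg over all genes tested, was at most 0.05. In chow livers 2 of 39 enzymes were higher (5.13%, against 2.29% of 13526 genes) and 0 were lower (against 1.94%), and 17 had an unadjusted p under 0.05. With upper-quartile scaling the chow counts were 2 higher and 1 lower, the latter Pccb. In HFCF livers 0 were higher (against 2.85% of 14295 genes) and 4 were lower (10.3%, against 3.95%), and 18 had an unadjusted p under 0.05. For counts at an unadjusted p, here and below, no share of all genes was computed, and they are not read as an excess. With voom weights the counts of calls were also 2 and 4, where 537 and 1062 of all genes were called. The additional thresholds of a fold change of 1.5 and of 10 counts in each group left 0 enzymes in chow (against 2.24% of all genes) and 2 in HFCF, Ido2 and Amt (5.13%, against 3.62%). In 18 of 39 enzymes the chow groups did not overlap (46.2%, against 29.5% of all genes), and in HFCF this held for 19 (48.7%, against 36.8%).

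Over both diets together, with diet as a term and 12 livers in the fit, 4 enzymes were higher in the livers labelled HuRHep-/- (10.3%, against 8.12% of 14535 genes) and 9 were lower (23.1%, against 9.32%). The median log2 fold change was -0.09 over the 39 enzymes and 0.01 over all genes. None of the 13 reached a fold change of 1.5, which 5.04% of all genes did among those called. For 7 enzymes the groups were apart in the same direction on each diet (17.9%, against 11.3%). Of the 13 calls, those of Gpt, Gpt2, Bckdhb, Mccc1, Pccb, Gldc and Amt were kept whichever of the 12 livers was left out, and the other 6 were not. Without HFCF HuRHep-/- replicate 3 the count was 8, and 2009 of all genes were called, against 2535 with all livers.

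**Figure D3:**
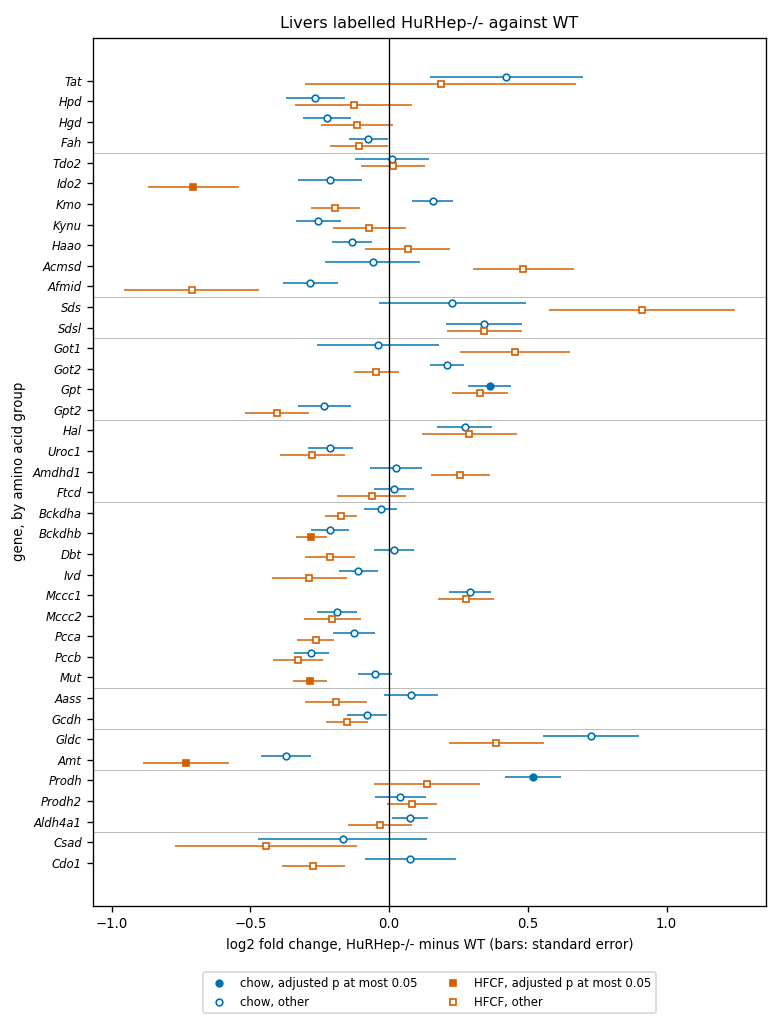
Log2 fold change of livers labelled HuRHep-/- against livers labelled WT for each of the 39 enzymes, in chow (circles) and in HFCF (squares), with bars of 1 standard error and filled symbols where the adjusted p was at most 0.05. Most values lie within 0.5 of zero. Gldc and Amt lie on opposite sides of zero, as do Mccc1 and Mccc2, and Gpt and Gpt2.

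Among the 9 pairs of partners compared, Gldc and Amt of the glycine cleavage system showed the widest split. Gldc encodes the decarboxylase of the system and Amt its aminomethyltransferase, which act in turn on the same glycine in mitochondria. Gcsh and Dld, which encode other proteins of the system, were not called over both diets (-0.12 and -0.08, limma adjusted p = 0.0978 and 0.295). In the livers labelled WT and HuRHep-/- in turn, Gldc (ENSMUSG00000024827, chr19:30098447-30175429, minus strand, GRCm38) had CPM of 75.2, 49.0 and 62.0 in chow WT against 123, 86.3 and 96.5 in chow HuRHep-/-. Under HFCF the values were 54.9, 69.3 and 61.6 against 93.6, 93.7 and 61.9. The groups did not overlap in chow, and in HFCF replicate 3 labelled HuRHep-/- lay within the WT range. The log2 fold change over both diets was 0.56 (SE 0.14, limma adjusted p = 0.0166).

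Amt (ENSMUSG00000032607, chr9:108296853-108302302, plus strand, GRCm38) had CPM of 41.0, 39.8 and 40.6 in chow WT against 33.9, 32.7 and 27.2 in chow HuRHep-/-. In HFCF the values were 37.1, 52.3 and 41.6 against 23.7, 31.5 and 24.4. The groups were apart on each diet. The log2 fold change was -0.73 in HFCF (SE 0.16, limma adjusted p = 0.0411), -0.37 in chow (SE 0.09, limma adjusted p = 0.0643) and -0.55 over both (SE 0.10, limma adjusted p = 0.0047). Leaving out any 1 of the 6 livers ended the HFCF call of Amt, with adjusted p between 0.0508 (without WT replicate 3) and 0.148 (without HuRHep-/- replicate 1). Without WT replicate 2, the highest value, the HFCF log2 fold change of Amt was -0.59 (limma adjusted p = 0.0603).

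Within each liver, the ratio of Gldc to Amt CPM was 1.83, 1.23 and 1.53 in chow WT and 3.64, 2.64 and 3.54 in chow HuRHep-/-. In HFCF it was 1.48, 1.32 and 1.48 against 3.95, 2.98 and 2.53. Every liver labelled HuRHep-/- lay above every liver labelled WT, by 2.14-fold in chow and 2.17-fold in HFCF on the geometric mean. A ratio within a library shows unequal change of the 2 transcripts and not which of them changed.

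The promoters of this pair are shown because the 2 genes moved apart. They are RefSeq sequences of GRCm38.p6, from 250 bases before to 50 bases after the annotated start, read along the gene: Gldc from chr19:30175392-30175691 on the minus strand, Amt from chr9:108296655-108296954 on the plus strand. Capitals mark matches on either strand to any of 6 words: TATAAA of the TATA box, CCAAT of the box of that name, GGGCGG of the GC box, TGTTCT of glucocorticoid receptor sites, TGACG of CREB sites and CAAAGTCCA of HNF4A sites.
Gldc: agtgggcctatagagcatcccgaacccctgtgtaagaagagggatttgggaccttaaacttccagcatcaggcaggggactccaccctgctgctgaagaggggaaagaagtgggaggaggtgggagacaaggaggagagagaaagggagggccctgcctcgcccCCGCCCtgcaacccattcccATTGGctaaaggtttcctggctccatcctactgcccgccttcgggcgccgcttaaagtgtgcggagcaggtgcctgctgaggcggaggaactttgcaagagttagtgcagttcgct
Amt: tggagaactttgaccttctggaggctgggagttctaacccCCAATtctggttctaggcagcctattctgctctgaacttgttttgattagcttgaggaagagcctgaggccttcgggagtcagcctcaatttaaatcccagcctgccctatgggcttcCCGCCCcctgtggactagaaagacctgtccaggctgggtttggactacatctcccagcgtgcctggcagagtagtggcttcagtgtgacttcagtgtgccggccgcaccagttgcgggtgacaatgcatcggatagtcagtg
In Gldc the CCAAT word lay at -66 and GGGCGG at -86 from the start, both on the opposite strand. In Amt CCAAT lay at -210 on the gene's strand and GGGCGG at -92 on the opposite strand. Both words are frequent: CCAAT was in 37.4% and GGGCGG in 35.7% of 32851 promoters in the table. Of the 31 enzymes with a promoter in it, 18 held CCAAT and 13 held GGGCGG. The word TATAAA was in 5 (13.6% of all promoters), TGACG in 5 (20.8%), TGTTCT in 4 (19.0%) and CAAAGTCCA in 0 (0.5%). The table holds no entry for Kynu, Gpt, Ido2, Mut, Dbt, Cdo1, Sdsl and Sds.

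**Figure D4:**
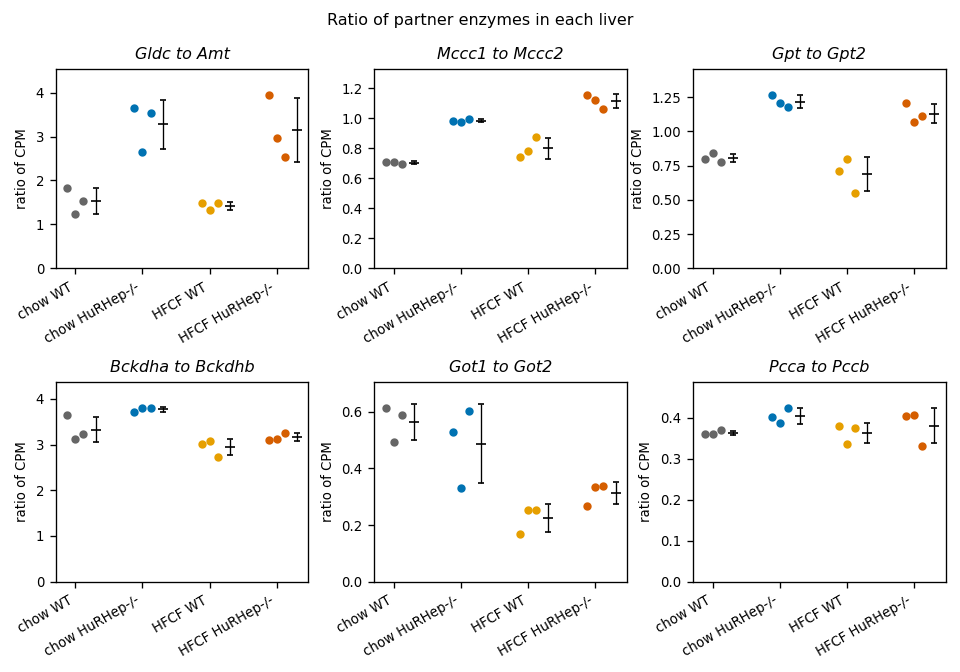
Ratio of CPM of 6 pairs of partner enzymes in each of the 12 livers, with the mean and SD of 3 livers beside each group and axes that start at 0. The ratios of Gldc to Amt, Mccc1 to Mccc2 and Gpt to Gpt2 are higher in all livers labelled HuRHep-/- than in all livers labelled WT of the same diet. Got1 to Got2 is lower in all HFCF livers labelled WT than in all chow livers.

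Of the branched-chain and propionyl-CoA group, 4 of 9 enzymes were lower over both diets and 1 was higher, against 9.32% and 8.12% of all genes. Bckdhb, the E1 beta subunit of the dehydrogenase that commits branched-chain keto acids to oxidation, had the smallest p of all 39. Its CPM were 72.3, 79.4 and 82.5 in chow livers labelled WT against 67.2, 65.1 and 68.8, and 84.1, 86.0 and 91.1 in HFCF against 72.7, 73.3 and 71.3. The groups were apart on each diet, and the log2 fold change over both was -0.24 (SE 0.04, limma adjusted p = 0.00301). The HFCF call alone (-0.28, limma adjusted p = 0.0377) was kept only without WT replicate 2 (0.0485). Without any other liver it was lost, with adjusted p from 0.0601 (without WT replicate 3) to 0.142 (without HuRHep-/- replicate 1). Bckdha, its E1 alpha partner, had CPM of 264, 248 and 266 in chow WT against 249.8, 247 and 261, and 254, 264 and 249.7 in HFCF WT against 225, 229.6 and 233. The chow groups overlapped and the HFCF groups did not. Bckdha had a log2 fold change of -0.10 over both diets (SE 0.04, limma adjusted p = 0.128), and the ratio of Bckdha to Bckdhb was higher in each liver labelled HuRHep-/- than in those labelled WT on the same diet, by 1.14-fold in chow and 1.08-fold in HFCF.

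Methylcrotonyl-CoA carboxylase, a step of leucine breakdown, is built of subunits from Mccc1 and Mccc2. Mccc1 (ENSMUSG00000027709, chr3:35959312-36000678, minus strand, GRCm38) had CPM of 45.8, 44.1 and 46.4 in chow WT against 52.5, 52.8 and 61.2, and 40.6, 52.2 and 45.1 in HFCF WT against 56.9, 58.8 and 52.3. It was higher in each liver labelled HuRHep-/- than in each of its diet labelled WT, with WT replicate 2 of HFCF close to the lowest of them, and the log2 fold change over both diets was 0.29 (SE 0.06, limma adjusted p = 0.00993). Mccc2 had -0.19 (SE 0.06, limma adjusted p = 0.0556). The ratio of Mccc1 to Mccc2 was 0.71, 0.71 and 0.70 in chow WT, 0.98, 0.98 and 0.99 in chow HuRHep-/-, 0.74, 0.78 and 0.88 in HFCF WT and 1.16, 1.12 and 1.07 in HFCF HuRHep-/-. It was 1.39-fold higher in chow and 1.40-fold higher in HFCF in the livers labelled HuRHep-/-.

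Propionyl-CoA from valine, isoleucine, methionine and threonine is carboxylated by Pcca and Pccb, and methylmalonyl-CoA mutase (Mut) passes the product to the citric acid cycle. Pccb had CPM of 196, 192 and 195 in chow WT against 150.0, 160 and 169, and 185, 219 and 182 in HFCF WT against 149, 154 and 168. No liver labelled HuRHep-/- reached the WT values of its diet, and the log2 fold change over both was -0.30 (SE 0.06, limma adjusted p = 0.0038).

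Pcca, the other subunit, had 70.4, 69.1 and 72.1 in chow WT against 60.3, 61.7 and 71.5, and 70.4, 73.1 and 67.9 in HFCF WT against 59.9, 62.4 and 55.6. In chow replicate 3 labelled HuRHep-/- lay within the WT range, and in HFCF the groups were apart. Over both diets the log2 fold change was -0.19 (SE 0.05, limma adjusted p = 0.0268), and the call was lost without chow HuRHep-/- replicate 2 (0.0598) or HFCF WT replicate 1 (0.0549).

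Mut had CPM of 109.7, 108.9 and 113.5 in chow WT against 101.6, 106.0 and 111.8, and 105.8, 108.9 and 102.3 in HFCF WT against 87.2, 91.2 and 84.6. The chow groups overlapped and the HFCF groups did not. Its log2 fold change was -0.29 in HFCF (SE 0.06, limma adjusted p = 0.0406), a call kept only without WT replicate 3 (0.0456) and lost without any other liver (0.0626 to 0.148). Over both diets it was -0.16 (SE 0.05, limma adjusted p = 0.0391), lost without any of the 6 HFCF livers, chow WT replicate 3 or chow HuRHep-/- replicates 1 or 2 (0.0569 to 0.0821) and with the replicate number as a block (0.0697).

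Alanine transaminase comes in a cytosolic form, Gpt, and a mitochondrial form, Gpt2, which exchange amino groups between alanine and glutamate. Gpt (ENSMUSG00000022546, chr15:76695716-76699686, plus strand, GRCm38) had CPM of 306, 312 and 318 in chow WT against 377, 382 and 443, and 278, 346 and 282 in HFCF WT against 362, 375 and 406. Its groups were apart on each diet. On the log2 scale the change was 0.36 in chow (SE 0.08, limma adjusted p = 0.0445), 0.33 in HFCF (SE 0.10, limma adjusted p = 0.0887) and 0.35 over both (SE 0.06, limma adjusted p = 0.00376). The chow call was lost without any 1 of the 6 livers (0.0595 to 0.134), and the call over both diets was kept without any 1 of the 12.

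Gpt2 went the other way. Its CPM were 385, 372 and 408 in chow WT against 298, 316 and 377, and 392, 431 and 511 in HFCF WT against 301, 351 and 365. In chow replicate 3 labelled HuRHep-/- lay above the lowest WT liver, and in HFCF the groups were apart. Over both diets the log2 fold change was -0.31 (SE 0.08, limma adjusted p = 0.0207). The ratio of Gpt to Gpt2 was 0.80, 0.84 and 0.78 in chow WT, 1.27, 1.21 and 1.18 in chow HuRHep-/-, 0.71, 0.80 and 0.55 in HFCF WT and 1.20, 1.07 and 1.11 in HFCF HuRHep-/-, with no overlap on either diet. Ratios were formed for 9 pairs of partners chosen by name, and the 5 other than Gldc to Amt, Mccc1 to Mccc2, Gpt to Gpt2 and Bckdha to Bckdhb overlapped on at least 1 diet. No share over other pairs of genes was computed.

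Prodh, the mitochondrial proline dehydrogenase, was called in chow alone. Its CPM were 169, 175 and 202 in chow WT against 270, 228 and 282, and 165, 270 and 160 in HFCF WT against 217, 220 and 203. The chow groups were apart, and in HFCF WT replicate 2 lay above every liver labelled HuRHep-/-. The log2 fold change was 0.52 in chow (SE 0.10, limma adjusted p = 0.0351), lost without any 1 of the 6 livers (0.0634 to 0.112), and 0.14 in HFCF (SE 0.19, limma adjusted p = 0.672). Without HFCF WT replicate 2 the HFCF value was 0.38 (limma adjusted p = 0.0336). Prodh2, which acts on hydroxyproline, and Aldh4a1, the next step for both, had 0.07 and 0.03 over both diets and were not called. Aldh4a1 had CPM of 358, 389 and 392 in chow WT against 393, 399 and 403, and 397, 517 and 392 in HFCF WT against 434, 441 and 405. In chow the groups nearly touched, and in HFCF they overlapped. A share of 32.5% of the exon bases of Aldh4a1 lies within Gm21969 on the same strand, which held 0 to 2 reads per library.

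Sdsl, a serine dehydratase-like gene, had CPM of 13.9, 11.01 and 12.6 in chow WT against 14.0, 14.6 and 18.99, and 7.74, 10.5 and 10.4 in HFCF WT against 11.2, 13.0 and 12.3. Its groups did not overlap on either diet, although chow WT replicate 1 and HuRHep-/- replicate 1 were nearly equal. Over both diets the log2 fold change was 0.35 (SE 0.10, limma adjusted p = 0.0338), lost without chow WT replicates 2 or 3, chow HuRHep-/- replicate 3, HFCF WT replicate 1, or HFCF HuRHep-/- replicates 2 or 3 (0.0547 to 0.0789). Its neighbour and paralog Sds, the abundant serine dehydratase, had CPM of 259, 171 and 290 in chow WT against 226, 223 and 404, and 101, 218 and 246 in HFCF WT against 260, 415 and 347. The spread between livers of 1 group was wide, and the log2 fold change over both diets was 0.57 (SE 0.25, limma adjusted p = 0.133).

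Of the 7 tryptophan enzymes, 2 were lower over both diets, against 9.32% of all genes, and both calls were lost in some fits with 1 liver left out. Ido2, an indoleamine dioxygenase, had CPM of 68.4, 84.1 and 66.2 in chow WT against 57.1, 60.2 and 70.1, and 67.3, 98.99 and 68.4 in HFCF WT against 42.0, 53.8 and 48.0. The chow groups overlapped and the HFCF groups did not. The log2 fold change was -0.71 in HFCF (SE 0.16, limma adjusted p = 0.0496), lost without WT replicate 1 or any liver labelled HuRHep-/- (0.0865 to 0.164), and -0.45 over both diets (SE 0.12, limma adjusted p = 0.0255), lost without HFCF HuRHep-/- replicate 1 (0.0532) or 3 (0.0507). Without HFCF WT replicate 2 the values were -0.53 in HFCF (limma adjusted p = 0.0472) and -0.35 over both diets (limma adjusted p = 0.0256).

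Afmid, the formamidase that releases kynurenine, ranged from 92.2 to 133 CPM in chow and from 59.5 to 162 in HFCF, where the livers labelled HuRHep-/- had 59.5 to 67.7. Its log2 fold change over both diets was -0.49 (SE 0.15, limma adjusted p = 0.0401). The call was lost without chow WT replicates 2 or 3, chow HuRHep-/- replicates 1 or 2, or any HFCF liver labelled HuRHep-/- (0.0534 to 0.0835). Without HFCF WT replicate 2 the value over both diets was -0.33 (limma adjusted p = 0.00771). Of its exon bases 44.2% lie within Gm20708 on the same strand, which held 121 to 682 reads per library, and reads of the 2 genes may not be separable.

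Uroc1, the urocanate hydratase of the histidine pathway, had 335 to 405 CPM in chow WT and 304 to 332 in chow HuRHep-/-, and 302 to 412 in HFCF WT against 275 to 296. Its groups were apart on each diet, and the log2 fold change over both was -0.24 (SE 0.07, limma adjusted p = 0.0418). The call was lost without chow WT replicates 1 or 3, chow HuRHep-/- replicates 2 or 3, or any HFCF liver labelled HuRHep-/- (0.0552 to 0.0889). The other 3 histidine enzymes were not called, and Hal had 0.29 (SE 0.10, limma adjusted p = 0.0782).

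The tyrosine pathway gave no call in any comparison of labels. Hpd had CPM of 2348, 2069 and 2254 in chow WT against 1720, 1746 and 2068, and 1362, 2465 and 1623 in HFCF WT against 1480, 1678 and 1737. The chow ranges met at their edges, and in HFCF the livers labelled HuRHep-/- lay within the WT range. Its log2 fold change over both diets was -0.19 (SE 0.13, limma adjusted p = 0.308). Gcdh of the lysine group had CPM of 608, 569.9 and 587 in chow WT against 541, 527 and 595, and 569.6, 638 and 558 in HFCF WT against 538, 545 and 522. Its chow groups overlapped and its HFCF groups did not, with a log2 fold change over both diets of -0.11 (SE 0.05, limma adjusted p = 0.154). Tat had the largest standard error of the 4 tyrosine enzymes, with a log2 fold change of 0.31 and an SE of 0.30. The lysine, cysteine and tyrosine groups together held 8 enzymes, with values over both diets between -0.30 (Csad) and 0.31 (Tat).

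In the HFCF livers, samples with the same replicate number deviated together, and a fit with the number as a block is therefore given beside the main one. It called 7 enzymes and 1341 of all genes, against 4 and 971 without the block, with 1 enzyme higher and 6 lower: Ido2, Bckdhb, Mut and Amt again, with Gpt2 (-0.40, limma adjusted p = 0.0345), Pcca (-0.27, limma adjusted p = 0.0496) and Sds (0.91, limma adjusted p = 0.0315) in addition. Without WT replicate 1 or any liver labelled HuRHep-/- the fit without the block called 0 by limma, with 10 to 16 enzymes at an unadjusted p under 0.05. Calls over all genes fell from 971 to between 28 and 117 in these 4 fits. Without WT replicate 3 it called 2 enzymes and 1280 of all genes. Without WT replicate 2 it called 707 of all genes and 6 enzymes, which were Ido2, Afmid and Bckdhb lower and Gpt, Amdhd1 and Prodh higher.

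An interaction term over the 12 livers asked whether the difference between labels was itself another one under HFCF than in chow. limma called 0 of the 39 enzymes, as it did 0.00% of 14535 genes, and voom weights called 0 enzymes as well. Unadjusted p-values were under 0.05 for 3 enzymes, Kmo (-0.33, limma adjusted p = 0.253), Mut (-0.21, limma adjusted p = 0.27) and Got2 (-0.23, limma adjusted p = 0.305). For each of them HuRHep-/- relative to WT was lower in HFCF than in chow. Standard errors of the interaction ran from 0.08 to 0.63 on the log2 scale.

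Marker genes of some other liver cells moved with the labels. Shares of all genes higher and lower were 2.29% and 1.94% in chow, 2.85% and 3.95% in HFCF, and 8.12% and 9.32% over both diets. Over both diets 1 of 10 sinusoidal endothelium markers was higher, and 0 of 10 stellate cell and fibroblast and 0 of 9 lymphocyte and neutrophil markers were called. In chow 0 markers of macrophages, endothelium, stellate cells or lymphocytes were called. The 14 Kupffer cell and macrophage markers summed to 257 to 338 CPM in chow WT, 342 to 500.3 in chow HuRHep-/-, 394 to 706 in HFCF WT and 700 to 934 in HFCF HuRHep-/-, and 9 of 14 were higher over both diets. The 7 measured cholangiocyte markers summed to 125 to 222 CPM in HFCF WT and 261 to 387 in HFCF HuRHep-/-, with 2 called higher in HFCF, and to 146 to 175 in chow WT and 121 to 169.6 in chow HuRHep-/-, with 0 called. Of 9 hepatocyte markers 1 was called over both diets, higher. It was Hp, which is also among the 15 acute phase genes. The hepatocyte sum was 108800 to 133000 CPM in chow WT and 93040 to 100800 in chow HuRHep-/-, which are apart. In HFCF it was 75300 to 86950 and 71820 to 76930, which overlap. The 15 acute phase genes had 6 higher and 1 lower in chow, with a median of 0.88, and 1 higher and 2 lower in HFCF, with a median of 0.08. Of 9 genes known to be high in pericentral hepatocytes, 2 were higher and 4 lower over both diets. The part of these shifts in the values of the enzymes was not tested.

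The comparison of HFCF and chow livers asks how the diet changes the same transcripts. The 2 diets were deposited as separate tables, and diet and table cannot be told apart. The chow livers labelled WT serve both here and in the comparison of labels, as do the other groups. Among livers labelled WT 1 enzyme was higher in HFCF (2.56%, against 11.3% of 14535 genes) and 7 were lower (17.9%, against 12.8%). The median log2 fold change was -0.11 over the 39 and 0.01 over all genes, and 11 of 39 values were positive, or 16 with upper-quartile scaling. A fold change of at least 1.5 as well was met by 6 enzymes (15.4%, against 9.38%), and the groups were apart for 12 (30.8%, against 37.6%). Among livers labelled HuRHep-/- 0 were higher (against 19.7%) and 13 were lower (33.3%, against 19.1%), and 18 had an unadjusted p under 0.05. Voom weights called 14, all of them lower, and 5893 of all genes against 5649 in the main fit. The median was -0.24, with 8 of 39 values positive, or 12 with upper-quartile scaling. The fold threshold left 5 (12.8%, against 19.1%), and the groups were apart for 22 (56.4%, against 54.6%).

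**Figure D5:**
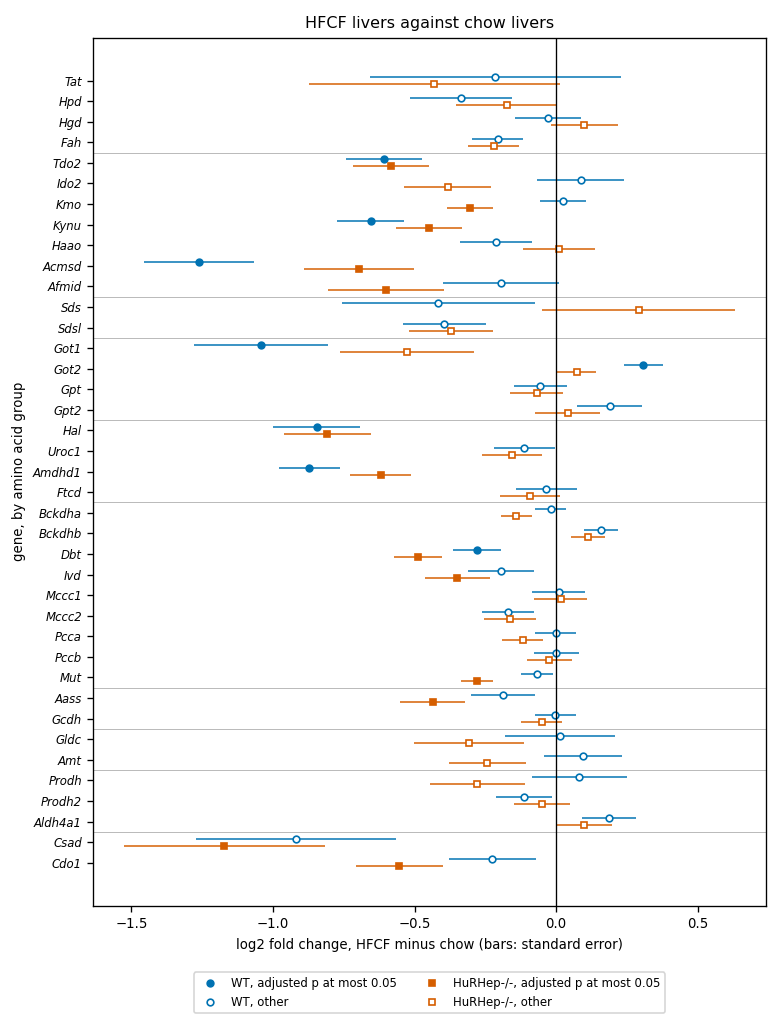
Log2 fold change of HFCF against chow livers for each of the 39 enzymes, in livers labelled WT (circles) and HuRHep-/- (squares), with bars of 1 standard error and filled symbols where the adjusted p was at most 0.05. Tdo2, Kynu, Acmsd, Hal, Amdhd1 and Dbt are filled on the left in both, and Got2 is the single filled symbol on the right.

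The largest fall among livers labelled WT was that of Acmsd, the decarboxylase that diverts tryptophan carbon from NAD synthesis. Its CPM were 21.7, 21.5 and 18.1 in chow WT and 6.47, 10.3 and 9.15 in HFCF WT, and 23.1, 14.7 and 21.7 against 12.3, 13.4 and 10.5 in the livers labelled HuRHep-/-. The diets did not overlap under either label. Acmsd had a log2 fold change of -1.26 in WT (SE 0.19, limma adjusted p = 0.0015) and -0.70 in HuRHep-/- (SE 0.19, limma adjusted p = 0.0154). The call in WT held without any 1 liver, and that in HuRHep-/- was lost without chow HuRHep-/- replicate 1 (0.0559) or 3 (0.0577) or HFCF HuRHep-/- replicate 3 (0.0566).

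Other tryptophan enzymes were lower too. Tdo2 had CPM of 1807, 1403 and 1536 in chow WT and 919, 1027 and 1167 in HFCF WT, and 1420, 1499 and 1848 against 1014, 1178 and 981 in the livers labelled HuRHep-/-. Kynu, the kynureninase, had 199, 167 and 188 against 107, 134 and 111, and 162, 144 and 156 against 115, 129 and 95.7. The diets were apart for both genes under both labels. Tdo2 fell by 0.61 on the log2 scale in WT (SE 0.13, limma adjusted p = 0.00843) and by 0.58 in HuRHep-/- (SE 0.13, limma adjusted p = 0.0062), and Kynu by 0.66 (SE 0.12, limma adjusted p = 0.0031) and 0.45 (SE 0.12, limma adjusted p = 0.011). In all 12 fits with 1 liver left out these 4 calls were kept.

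Histidine breakdown starts with Hal, the histidine ammonia-lyase, goes on with Uroc1 and Amdhd1, the imidazolonepropionase, and ends with Ftcd. Hal had CPM of 295, 257 and 255 in chow WT and 115, 187 and 155 in HFCF WT, and 368, 302 and 303 against 181, 206 and 168 in the livers labelled HuRHep-/-. Amdhd1 had 228, 180 and 197 against 101, 130 and 101, and 218, 197 and 196 against 129, 138 and 129. Every HFCF liver lay below every chow liver for both genes.

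Hal fell by 0.85 on the log2 scale in WT (SE 0.15, limma adjusted p = 0.00326) and by 0.81 in HuRHep-/- (SE 0.15, limma adjusted p = 0.0022). Amdhd1 fell by 0.87 (SE 0.11, limma adjusted p = 0.00057) and 0.62 (SE 0.11, limma adjusted p = 0.00138). These calls held without any 1 of the 12 livers. Uroc1 and Ftcd, the steps between and after them, had -0.11 and -0.04 in WT and -0.16 and -0.09 in HuRHep-/-, and were not called. Ftcd had CPM of 393, 353 and 376 in chow WT and 319.6, 446 and 340.2 in HFCF WT, and 356, 377 and 398 against 340.3, 355 and 365 in HuRHep-/-. These ranges overlap under both labels.

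Hal (chr10:93488768-93519304, plus strand) and Amdhd1 (chr10:93523338-93540033, minus strand) are neighbours on chromosome 10 of GRCm38 and face each other with their 3′ ends. Their promoters, at the outer ends of the pair, are shown because the 2 genes fell together. They are RefSeq sequences of GRCm38.p6 in the same window and with the same words in capitals as for Gldc and Amt: Hal from chr10:93488518-93488817 on the plus strand, Amdhd1 from chr10:93539984-93540283 on the minus strand.
Hal: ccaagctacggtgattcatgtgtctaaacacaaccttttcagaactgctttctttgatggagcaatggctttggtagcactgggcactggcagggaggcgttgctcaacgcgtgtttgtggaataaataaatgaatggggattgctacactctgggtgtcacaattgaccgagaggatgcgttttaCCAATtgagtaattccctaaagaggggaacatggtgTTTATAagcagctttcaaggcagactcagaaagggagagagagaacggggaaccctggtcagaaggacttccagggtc
Amdhd1: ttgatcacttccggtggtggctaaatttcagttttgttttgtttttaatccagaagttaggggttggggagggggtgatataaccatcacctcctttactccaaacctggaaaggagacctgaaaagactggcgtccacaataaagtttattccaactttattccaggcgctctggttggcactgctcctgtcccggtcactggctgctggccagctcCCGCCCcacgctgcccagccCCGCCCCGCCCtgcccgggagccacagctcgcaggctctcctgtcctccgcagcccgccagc
Hal held TATAAA at -28 on the opposite strand and CCAAT at -64. Amdhd1 held neither and had GGGCGG on the opposite strand at -32, -12 and -7, the last 2 of which share 1 base. The base composition differed as well, with 47.7% G and C in Hal and 57.0% in Amdhd1. The words found are matches of letters and were not tested as sites.

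The transaminases of aspartate moved in opposite directions with the diet in livers labelled WT. Got1, the cytosolic form, had CPM of 329, 262 and 318 in chow WT and 104, 182 and 165 in HFCF WT, and 325, 200 and 383 against 180, 218 and 212 in the livers labelled HuRHep-/-. The diets were apart in WT and overlapped in HuRHep-/-, where chow replicate 2 was low. Got1 fell by 1.04 on the log2 scale in WT (SE 0.24, limma adjusted p = 0.00959) and by 0.53 in HuRHep-/- (SE 0.24, limma adjusted p = 0.0994), and the difference between these 2 falls did not pass the test of the interaction (limma adjusted p = 0.505).

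Got2, the mitochondrial form, had 537, 533 and 541 in chow WT and 623, 723 and 651 in HFCF WT, and 617, 602 and 636 against 672, 650 and 628 in HuRHep-/-. The diets were apart in WT and overlapped in HuRHep-/-. It was 0.31 higher on the log2 scale in WT (SE 0.07, limma adjusted p = 0.00876), a call kept in all 12 fits with 1 liver left out, and 0.07 higher in HuRHep-/- (SE 0.07, limma adjusted p = 0.43). Of the 31-base words of its longest transcript 38.9% also occur in other genes, of which the pseudogene Got2-ps1 shares the most, so that its reads may be split. The ratio of Got1 to Got2 was 0.61, 0.49 and 0.59 in chow WT and 0.17, 0.25 and 0.25 in HFCF WT. In HuRHep-/- it was 0.53, 0.33 and 0.60 in chow and 0.27, 0.34 and 0.34 in HFCF, where the diets overlap.

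Dbt, the E2 core of the branched-chain dehydrogenase, had CPM of 64.6, 63.9 and 68.6 in chow WT and 52.0, 61.6 and 49.3 in HFCF WT, and 64.1, 62.4 and 72.3 against 46.6, 47.0 and 48.0 in HuRHep-/-. The diets did not overlap under either label. It fell by 0.28 on the log2 scale in WT (SE 0.08, limma adjusted p = 0.032), a call lost without chow WT replicate 1 (0.0721) or 3 (0.105) or HFCF WT replicate 1 (0.0983) or 3 (0.123), and by 0.49 in HuRHep-/- (SE 0.08, limma adjusted p = 0.00137), which held without any 1 liver. The E1 subunits of the same complex were not called for diet under either label, though upper-quartile scaling added Bckdhb as higher under both.

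In livers labelled HuRHep-/- 7 further enzymes were lower in HFCF. In WT their log2 fold changes were not called and were -0.92 for Csad, -0.23 for Cdo1, -0.20 for Ivd, -0.19 for Afmid and Aass, -0.07 for Mut and 0.02 for Kmo. Mut fell by 0.28 (SE 0.06, limma adjusted p = 0.00297) and Aass, which opens lysine breakdown, by 0.44 (SE 0.11, limma adjusted p = 0.0116), and both calls held without any 1 liver. Kmo, the kynurenine hydroxylase, fell by 0.31 (limma adjusted p = 0.0128) and Cdo1 by 0.55 (limma adjusted p = 0.0151), calls lost without HFCF HuRHep-/- replicate 1 (0.0572 and 0.0522). Csad, which makes hypotaurine from the product of Cdo1, fell by 1.17 (SE 0.35, limma adjusted p = 0.022), lost without chow HuRHep-/- replicate 1 (0.0799) or 2 (0.0538) or HFCF HuRHep-/- replicate 3 (0.0882). It ranged widely, from 141 to 285 CPM in chow HuRHep-/- and from 57.2 to 123 in HFCF HuRHep-/-.

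Ivd, the isovaleryl-CoA dehydrogenase, fell by 0.35 (SE 0.12, limma adjusted p = 0.0318), lost without chow HuRHep-/- replicate 1 (0.0592) or 3 (0.111) or any HFCF liver labelled HuRHep-/- (0.0649 to 0.0867). Afmid fell by 0.60 (SE 0.20, limma adjusted p = 0.0362), lost without any 1 of the 6 livers labelled HuRHep-/- (0.0587 to 0.11).

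Cdo1, next to Hpd in level per length, had CPM of 1489, 970 and 1471 in chow WT and 980, 1265 and 1072 in HFCF WT, and 1446, 1298 and 1312 against 879, 987 and 898 in HuRHep-/-. The diets overlapped in WT, where chow replicate 2 was lowest, and were apart in HuRHep-/-. In WT its log2 fold change was -0.23 (SE 0.15, limma adjusted p = 0.305). For none of the 39 was the difference between the diet effects of the 2 labels, which is the same interaction as above, called by limma.

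Leaving out HFCF WT replicate 2, which had the highest value of its group for most enzymes, raised the calls for diet in WT from 8 to 15. Of these 14 were lower, while calls over all genes went from 3508 to 3956. The liver was picked for those high values, so that the added lower calls follow in part from the choice and are no support. The 7 added were Hpd (-0.58, limma adjusted p = 0.00642), Fah, Haao, Afmid, Uroc1, Ivd and Mccc2, all lower. The 8 called with all livers were called without it as well.

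Markers moved with the diet too. Of all genes 11.3% were higher and 12.8% lower in WT, and 19.7% and 19.1% in HuRHep-/-. Of 9 hepatocyte markers 5 were lower in HFCF under each label, with medians of -0.71 in WT and -0.46 in HuRHep-/-. Of 14 macrophage markers 7 were higher in WT and 10 in HuRHep-/-, and of 10 stellate cell and fibroblast markers 3 and 10. Sinusoidal endothelium had 1 and 4 of 10 higher, and lymphocytes and neutrophils 0 and 3 of 9. All 7 measured cholangiocyte markers were higher in HuRHep-/- (median 1.30) and 0 were called in WT (median 0.00). Of 8 genes known to be high in periportal hepatocytes 5 were lower in WT (median -0.62) and 4 in HuRHep-/- (median -0.50). Their sum was 10390 to 11830 CPM in chow WT and 5627 to 8400 in HFCF WT. The 9 pericentral genes summed to 13810 to 15350 CPM in chow WT and 12230 to 14280 in HFCF WT, which overlap. In HuRHep-/- the pericentral sum was 11410 to 14340 in chow and 8496 to 9723 in HFCF, which are apart. The part of these shifts in the values of the enzymes was not tested.

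Since HuR binds AU-rich and U-rich stretches, the 3′ UTRs of the enzymes were searched for 3 words on the transcript strand, in the longest coding transcript of GENCODE M21. ATTTA was in 18 of 39 enzymes (46.2%) and in 68.7% of 13318 genes tested, TTATTTATT in 0 of 39 and in 7.8%, and a run of TTTTTTT in 11 of 39 (28.2%) and in 43.0%. The 3′ UTRs of the enzymes were shorter, with a median of 666 bases against 1115. Per kilobase of 3′ UTR, ATTTA occurred 1.61 times in the enzymes and 1.80 times in all genes, and TTTTTTT 2.29 and 1.90 times, where overlapping matches within 1 longer run were each counted. It was in 3 of the 9 enzymes lower over both diets, in 1 of the 4 higher ones and in 7 of the 26 not called. The counts per kilobase rest on few genes, with 24 matches in Amt and 19 in Uroc1. Of the 4 enzymes higher over both diets 2 held ATTTA, of the 9 lower ones 4, and of the 26 not called 12. Examples from called enzymes, 2 higher and 2 lower, are shown to place the word, which is in capitals, with the reference position in GRCm38.
Gldc (chr19:30098733-30098758, minus strand): attgggagccATTTAgtttgccggat
Mccc1 (chr3:35959863-35959888, minus strand): gtgtgattatATTTAaacccttttat
Gpt2 (chr8:85527102-85527127, plus strand): gagggttagtATTTAtagtcctaaca
Pcca (chr14:122889628-122889653, plus strand): ttgcgcaagcATTTAcaggagcactc
The word starts 219 bases after the stop codon in Gldc, 135 in Mccc1, 1486 in Gpt2 and 83 in Pcca. These are matches of letters in the reference, and binding was not measured.

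A wider list of 52 further genes of amino acid breakdown, of which 48 were measured, had 1 higher and 2 lower in chow, 0 and 8 in HFCF, and 4 and 14 over both diets, with a median of -0.12 over both. The shares of all genes higher and lower were 2.29% and 1.94% in chow, 2.85% and 3.95% in HFCF, and 8.12% and 9.32% over both diets. Of these calls 0 of 3 in chow, 1 of 8 in HFCF and 14 of 18 over both diets were kept in every fit with 1 liver left out. The genes with the largest changes over both diets were Kyat3, a kynurenine aminotransferase (-0.75, limma adjusted p = 0.000853), Oat, the ornithine aminotransferase (-0.69, limma adjusted p = 0.00356), and Hsd17b10, a dehydrogenase of isoleucine breakdown (-0.68, limma adjusted p = 5.55e-05). All 3 calls held without any 1 liver. Oat is also one of the 9 pericentral genes above. Kyat1, a kynurenine aminotransferase of another gene, was higher in chow (0.56, limma adjusted p = 0.0106), a call kept in 5 of 6 fits with 1 liver left out, and over both diets (0.42, limma adjusted p = 0.00651).

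Of 18 amino acid transporters 3 were higher and 4 lower over both diets, against 8.12% and 9.32% of all genes, and 3 of these 7 calls were kept in every fit with 1 liver left out. Slc1a4, a carrier of neutral amino acids, was 1.04 higher on the log2 scale (SE 0.16, limma adjusted p = 0.00137), and it was also higher in HFCF by 2.11 in WT and 1.91 in HuRHep-/-, in each fit with 1 liver left out. Slc1a4 was the 1 transporter called higher for diet under either label, against 11.3% and 19.7% of all genes, and 3 were lower in WT and 8 in HuRHep-/-, against 12.8% and 19.1%. Of 15 regulators 0 were higher and 1 was lower over both diets, a share below that of all genes, and this was Nr3c1, the glucocorticoid receptor (-0.17, limma adjusted p = 0.026), a call kept in 9 of 12 fits with 1 liver left out.

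For diet, the wider list had 5 higher and 10 lower in WT and 7 and 19 in HuRHep-/-. Of all genes 11.3% were higher and 12.8% lower in WT, and 19.7% and 19.1% in HuRHep-/-, so that the higher calls of the list were near or below the share of all genes. In every fit with 1 liver left out 7 of the 15 calls in WT and 17 of the 26 in HuRHep-/- were kept. Agxt, which removes glyoxylate with alanine as donor, fell by 1.05 in WT and by 1.02 in HuRHep-/- (limma adjusted p = 0.00266 and 0.00154), and Gcat, an enzyme of threonine breakdown, by 0.82 in WT (limma adjusted p = 0.000426). Of the 15 regulators 1 was higher and 3 were lower in WT and 0 and 4 in HuRHep-/-, beside the shares of all genes just given. Ppara was the higher one in WT (0.59, limma adjusted p = 0.000653) and had 0.19 in HuRHep-/- (limma adjusted p = 0.0638), and Hnf4a, a factor of hepatocyte identity, was lower under both labels (-0.51 and -0.47, limma adjusted p = 0.00256 and 0.00199). The calls of Agxt, Gcat and Hnf4a named here, and of Ppara in WT, held without any 1 liver.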

How the data were processed

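Bulk RNA-seq was measured in 12 mouse livers. Per the study's methods, reads were mapped with CLC Genomics Workbench against GRCm38.p6. The authors deposited raw counts per gene, not normalized, in 2 tables, one per diet. No count-based tool was used for the tests, since many values are text with a comma between digits (chow 21506, HFCF 23123). All were whole numbers once it was removed, and CPM and the filter take them as counts. Groups are those of the labels. The members and gene lists were chosen with earlier results of these data known.

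CPM were computed here with TMM factors (trims of 0.3 and 0.05). A gene entered if 3 or more libraries reached a CPM worth 10 counts at median depth and its counts summed to 15 or more. The fit was limma 3.58.1 (R 4.3.3) with a variance trend on log2 CPM with a pseudocount of 0.5. Chow and HFCF were fitted on 6 libraries each and the other comparisons on 12, and log2 fold changes are HuRHep-/- minus WT or HFCF minus chow. CPM of single livers are on 1 scale over the 12 libraries. p-values were adjusted over all genes tested. They weigh a difference against the spread between these mice, with a variance drawn towards the trend over all genes. The code of the fits was run on simulated counts with set changes, which bears on the code and not on these livers. Positions are from GENCODE M21 (GRCm38) and promoters from RefSeq.

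Genes with values in every liver were those called between labels (the 12 with the smallest p), the 8 called for diet in WT, and the one with the highest level per length in each group. Other enzymes are given by range and counts. Alternatives were RLE and upper-quartile factors, no filter, 10 counts in every library, a pseudocount of 2, voom weights, a fold change of 1.5, a fit on 12 libraries, the replicate number as a block, and leaving out each library. For the block, deviations of same-numbered livers correlated with r = 0.18, 0.29 and 0.14 in HFCF, above 0.1 in each pair, and the pairing comes from these correlations and the numbers in the labels alone.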

Additional observations from a re-analysis of the deposited data

How the results depend on the processing

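With the added fold change of 1.5 the counts of enzymes called were 0 in chow, 2 in HFCF, 0 over both diets and 5 for diet in HuRHep-/-, against 2, 4, 13 and 13. In chow, RLE factors or no filter on low counts left 1 call each (Prodh), and upper-quartile factors, 10 counts in every library or a pseudocount of 2 gave 2 higher and 1 lower (Pccb). Calls over all genes in these chow fits ran from 495 to 586, against 572. In HFCF, upper-quartile factors left 1 call (Amt), the replicate block gave 7 and the fit on 12 libraries 9. All-gene calls in these HFCF fits were 791, 1341 and 1619, against 971. Over both diets the replicate block gave 15 calls, without Mut and with Sds, Hal and Mccc2 in addition. Calls over all genes went from 2535 to 2165 there, and from 572 to 341 with the block in chow. In chow the block gave 2 calls, Gldc and Prodh in place of Gpt and Prodh, where same-numbered livers correlated with r = -0.01, 0.18 and 0.03 and WT replicate 1 correlated best with HuRHep-/- replicate 3, so that they share only a number. For diet in WT the block gave 8 and for diet in HuRHep-/- 14, with 3567 and 5716 of all genes, against 3508 and 5649 without it.

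Leaving out 1 library gave 0 to 1 calls in chow, 0 to 6 in HFCF, 8 to 14 over both diets, 7 to 15 for diet in WT and 9 to 17 for diet in HuRHep-/-. Calls over all genes moved widely in the same fits, from 9 to 535 in chow, 28 to 1280 in HFCF and 1766 to 2741 over both diets. For diet they ran from 1979 to 3956 in WT and from 4037 to 5964 in HuRHep-/-. The fewest in HFCF were 0, without WT replicate 1 or without any liver labelled HuRHep-/-, and 2 were left without WT replicate 3. Over both diets the 8 calls were those without HFCF HuRHep-/- replicate 3. No called enzyme changed direction under an alternative. Fits that leave a group with fewer mice assume that it varies like the others. Causes were not tested.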
